A study of Mus musculus with 9 samples.

Results

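A set of 9 genes that mark the passage of a monocyte into a tissue macrophage was followed in macrophages sorted from the inflamed mouse colon. Ly6c2, Ccr2 and Vcan stood for the monocyte side, and Cx3cr1, Adgre1, Csf1r, Maf, Cd81 and Folr2 for the macrophage side. The genes were taken by symbol from the 34365 probe sets of the array, of which 23521 carried 1 symbol and covered 22180 genes. All 9 had such a probe set, Maf had a second, and the brightest represented its gene.

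Macrophages came from 4 LysMCre;Arntfl/fl mice, in which both copies of Arnt are floxed and Cre is expressed from the Lyz2 (lysozyme M) locus, and from 5 LysMCre mice, which carry the same Cre and wild-type Arnt. All were female C57BL/6 mice housed together. Their age is not given in the sources used here. They drank 3% DSS (dextran sodium sulfate, an irritant that injures the colon epithelium) for 5 days and plain water for 3 days, and CD45+ CD11b+ F4/80+ cells of the lamina propria were sorted on Day 8, with 1 Affymetrix Mouse Gene array per mouse. Arnt is the partner with which HIF-1α and HIF-2α bind DNA. The Lyz2 promoter is active in neutrophils as well as in macrophages and monocytes, so Cre acts in both lineages. The floxed line had been backcrossed to the shared strain from a mixed background, and deletion by this Cre is known to become more complete as monocytes mature, so the share of cells that lost Arnt and the maturity of the cells cannot be told apart. F4/80 is the product of Adgre1, and CD11b and CD45 are those of Itgam and Ptprc, so the gate itself constrained the level of Adgre1.

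In the colon, macrophages are replenished from blood monocytes. A monocyte with much Ly6C on its surface enters through CCR2, then acquires MHC class II, loses Ly6C and gains F4/80 and CX3CR1 as it matures. During inflammation the sequence is known to stall, and cells of its early stages accumulate beside the resident CX3CR1-high macrophages.

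LysMCre;Arntfl/fl macrophages had lower mean values of Cx3cr1, Cd81 and Folr2 on the macrophage side and of Ccr2 on the monocyte side, while the mean of Vcan was higher and Ly6c2 and Maf differed by less than their spread. None of the 9 passed the test over all probe sets. With limma, called at an adjusted p below 0.05 (Benjamini-Hochberg over all 34365 probe sets) and a fold change above 1.5, 0 of the 9 were called, where 0.294 percent of all probe sets were. At an unadjusted p below 0.05, 4 of the 9 passed (Ccr2, Cx3cr1, Cd81 and Folr2, all lower), where 11.5 percent of all probe sets did, 5.79 percent lower and 5.72 percent higher. A SAM-type d score called 1 of the 9, Cx3cr1, where it called 159 of all 34365 probe sets higher and 193 lower. Values are RMA values on the log2 scale, and a log2 fold change is LysMCre;Arntfl/fl minus LysMCre, so a negative one means a lower value in LysMCre;Arntfl/fl macrophages.

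**Figure D1:**
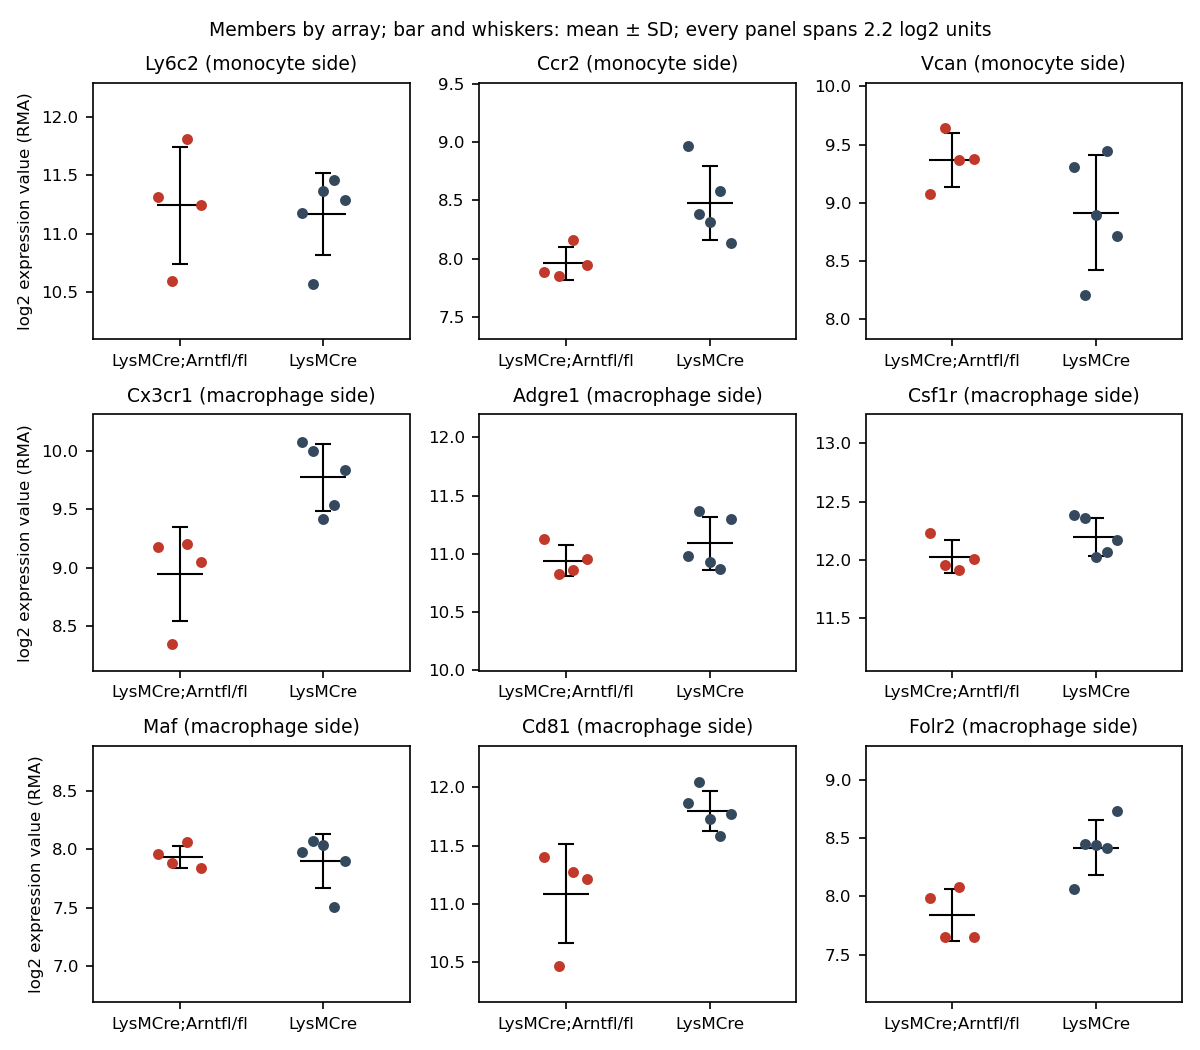
The log2 expression value (RMA) of each of the 9 genes in each array, LysMCre;Arntfl/fl (n = 4) left and LysMCre (n = 5) right, with the mean and SD. Cx3cr1 and Cd81 are the panels in which the arrays of the genotypes do not overlap.

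For the promoter windows of the RefSeq table (build GRCm38.p6, 250 bases before to 50 after a start site), 6 of the 9 genes had an entry, Ly6c2, Ccr2, Vcan, Cx3cr1, Cd81 and Folr2. They were searched on both strands for the core of the hypoxia response element, ACGTG or GCGTG, to which HIF and ARNT bind, and for GAGGAAGT, a core bound by PU.1, the product of Spi1. Of the 32851 windows in the table, 43.8 percent held the hypoxia core and 3.2 percent held GAGGAAGT. The hypoxia core was in the windows of 2 of the 6 genes, Cx3cr1 and Cd81, beside the 43.8 percent of all windows. GAGGAAGT was in that of Ly6c2. Ccr2, Vcan and Folr2 held neither. The stretches with a match are shown with the match in capitals. A match says that the letters are there, and no binding was measured. The hypoxia core of Cx3cr1 lies 34 bases after the start, on the strand of the gene, and that of Cd81 lies 174 bases before the start and reads as GCGTG on the other strand, so it appears as CACGC. The first GAGGAAGT of Ly6c2 lies 108 bases before its first listed start.
Cx3cr1, chr9:120068247-120068276, minus strand: tctggtggagtctGCGTGagactgggtgag
Cd81, chr7:143052500-143052749, plus strand: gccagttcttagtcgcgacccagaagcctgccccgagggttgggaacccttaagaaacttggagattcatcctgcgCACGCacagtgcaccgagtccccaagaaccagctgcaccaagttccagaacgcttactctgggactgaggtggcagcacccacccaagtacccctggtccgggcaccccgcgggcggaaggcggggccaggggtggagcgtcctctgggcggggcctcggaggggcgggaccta
Ly6c2, chr15:75112061-75112090, minus strand: atgttggccctGAGGAAGTaagaaccaaaa

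Cx3cr1 encodes the receptor for fractalkine, the product of Cx3cl1, and its level distinguishes mature colonic macrophages from newly arrived monocytes. Its log2 value was 9.18, 8.35, 9.21 and 9.05 in LysMCre;Arntfl/fl replicates 1 to 4, and 10.08, 10.00, 9.42, 9.54 and 9.84 in LysMCre replicates 1 to 5. Every LysMCre;Arntfl/fl array lay below every LysMCre array, and replicate 2 was the lowest of all. The means were 8.94 ± 0.40 (SD, n = 4) in LysMCre;Arntfl/fl and 9.78 ± 0.29 (SD, n = 5) in LysMCre macrophages, a 1.78-fold lower level (log2 fold change -0.83, standard error 0.20, 95% interval -1.27 to -0.40, limma adjusted p = 0.103). The SAM-type d score, after the test that the methods name, gave q = 0.0419 as a fraction. Without LysMCre;Arntfl/fl replicate 2 the log2 fold change was -0.63 (limma adjusted p = 0.180), and the remaining arrays did not overlap either. In these bulk samples, fewer cells of a type and less RNA per cell cannot be told apart.

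Cd81, a tetraspanin of the cell surface that is used as a marker of maturing intestinal macrophages, gave a like picture. It was at 11.40, 10.47, 11.28 and 11.21 in LysMCre;Arntfl/fl and at 11.87, 12.05, 11.72, 11.58 and 11.77 in LysMCre macrophages. Again all LysMCre;Arntfl/fl arrays were below all LysMCre arrays, with replicate 2 farthest down. The means were 11.09 ± 0.42 (SD, n = 4) in LysMCre;Arntfl/fl and 11.80 ± 0.17 (SD, n = 5) in LysMCre macrophages, 1.64-fold lower (log2 fold change -0.71, standard error 0.18, 95% interval -1.10 to -0.32, limma adjusted p = 0.122). It was -0.50 without LysMCre;Arntfl/fl replicate 2 (limma adjusted p = 0.150). Cx3cr1 and Cd81 were the members beyond 1.5-fold, 2 of 9, and also the members without overlap, 2 of 9, both with LysMCre;Arntfl/fl lower. Over all probe sets 2.62 percent were beyond 1.5-fold (1.53 percent lower), and 4.73 percent had no overlap.

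Folr2 encodes folate receptor beta, which marks resident tissue macrophages. Its log2 value was 7.98, 7.65, 8.08 and 7.65 in LysMCre;Arntfl/fl and 8.07, 8.45, 8.44, 8.41 and 8.73 in LysMCre macrophages. The groups touched at 1 point, where LysMCre;Arntfl/fl replicate 3 lay 1 rank above LysMCre replicate 1, and the other LysMCre;Arntfl/fl arrays were below all LysMCre arrays. The means were 7.84 ± 0.22 (SD, n = 4) in LysMCre;Arntfl/fl and 8.42 ± 0.24 (SD, n = 5) in LysMCre macrophages (log2 fold change -0.58, standard error 0.14, 95% interval -0.89 to -0.26, limma adjusted p = 0.115).

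Adgre1 (F4/80), Csf1r and Maf differed little. Adgre1, the antigen of the sort, was at 11.12, 10.82, 10.86 and 10.96 in LysMCre;Arntfl/fl and 10.98, 11.37, 10.93, 10.87 and 11.29 in LysMCre macrophages. The groups overlapped, with a log2 fold change of -0.15 (standard error 0.12, 95% interval -0.42 to 0.12, limma adjusted p = 0.727), and one of -0.08 without LysMCre replicate 2 and -0.10 without LysMCre replicate 5. Csf1r encodes the receptor for the growth factor CSF1, on which monocytes and macrophages depend. It was at 12.24, 11.96, 11.91 and 12.01 in LysMCre;Arntfl/fl and 12.38, 12.36, 12.02, 12.07 and 12.17 in LysMCre macrophages. Replicates 2, 3 and 4 of LysMCre;Arntfl/fl lay below all LysMCre arrays, replicate 3 of LysMCre just above them, and replicate 1 of LysMCre;Arntfl/fl among the LysMCre values (log2 fold change -0.17, standard error 0.11, 95% interval -0.41 to 0.07, limma adjusted p = 0.606).

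Maf encodes c-Maf, a transcription factor of resident macrophages. Its brighter probe set was at 7.96, 7.89, 8.06 and 7.84 in LysMCre;Arntfl/fl and 7.98, 8.07, 8.04, 7.51 and 7.90 in LysMCre macrophages. All LysMCre;Arntfl/fl values fell inside the LysMCre range, whose lower end was set by replicate 4 (log2 fold change 0.04, standard error 0.12, 95% interval -0.23 to 0.30, limma adjusted p = 0.945). The other probe set of Maf had the opposite sign, -0.28 (limma adjusted p = 0.568), and the mean of both gave -0.12, so no direction could be given for Maf. For Adgre1, Csf1r and Maf the intervals leave out a difference of 1.5-fold in either direction at their brightest probe set. Missing the threshold of a test is no evidence that the values were equal.

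**Figure D2:**
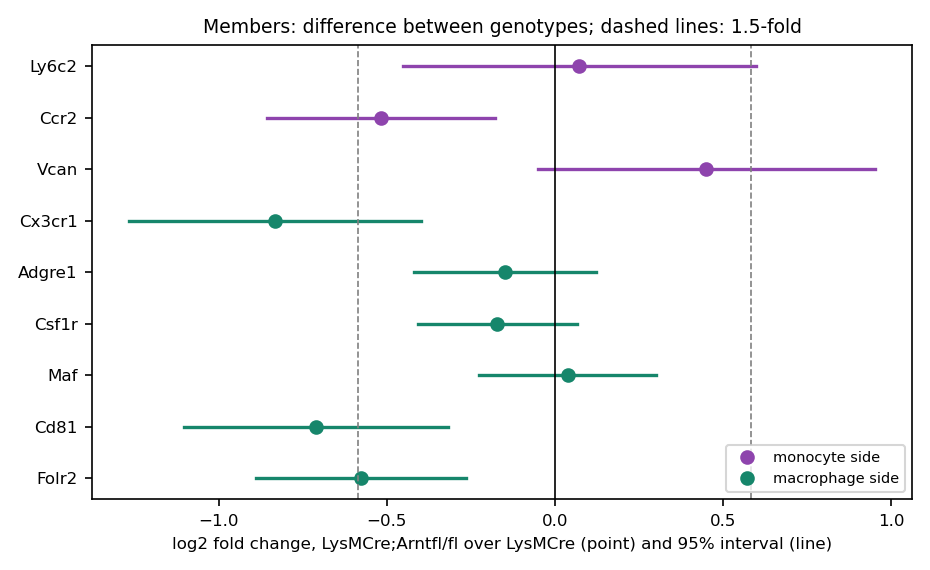
The log2 fold change (point) of each of the 9 genes, LysMCre;Arntfl/fl over LysMCre, with its 95% interval (line) and dashed lines at 1.5-fold. The intervals of Ccr2, Cx3cr1, Cd81 and Folr2 lie below 0, and those of the other 5 genes include it.

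On the monocyte side, Ccr2 encodes the receptor for CCL2, CCL7 and CCL12, which brings monocytes out of the bone marrow and into inflamed tissue. Its log2 value was 7.88, 7.85, 8.16 and 7.95 in LysMCre;Arntfl/fl and 8.97, 8.39, 8.31, 8.58 and 8.14 in LysMCre macrophages. The LysMCre;Arntfl/fl arrays lay close together at the low end, and replicate 3 exceeded the lowest LysMCre array, replicate 5. The means were 7.96 ± 0.14 (SD, n = 4) in LysMCre;Arntfl/fl and 8.48 ± 0.32 (SD, n = 5) in LysMCre macrophages, 1.43-fold lower (log2 fold change -0.52, standard error 0.15, 95% interval -0.86 to -0.18, limma adjusted p = 0.196).

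Ly6c2 encodes a Ly6C antigen, the surface protein by which inflammatory monocytes are recognised. It was at 11.31, 10.59, 11.81 and 11.25 in LysMCre;Arntfl/fl and 11.17, 10.57, 11.36, 11.46 and 11.28 in LysMCre macrophages. Each genotype had a low replicate 2, and the spread within a genotype was larger than the difference between them. The means were 11.24 ± 0.50 (SD, n = 4) in LysMCre;Arntfl/fl and 11.17 ± 0.35 (SD, n = 5) in LysMCre macrophages (log2 fold change 0.07, standard error 0.24, 95% interval -0.45 to 0.60, limma adjusted p = 0.948). The sign turned when LysMCre;Arntfl/fl replicate 3 was left out (-0.12), and likewise LysMCre replicate 2 (-0.08). The neighbouring gene Ly6c1 has a very similar sequence, and signal shared between the probes of both was not tested. Its own probe set was at 5.46 ± 0.21 (SD, n = 4) in LysMCre;Arntfl/fl and 5.45 ± 0.35 (SD, n = 5) in LysMCre macrophages, below the median of all probe sets.

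Vcan encodes versican, a matrix proteoglycan that is abundant in classical monocytes and is lost as they mature. It was at 9.08, 9.64, 9.37 and 9.38 in LysMCre;Arntfl/fl and 9.31, 8.21, 8.90, 9.45 and 8.72 in LysMCre macrophages. The LysMCre arrays were widely spread, and replicates 1 and 4 lay among the LysMCre;Arntfl/fl values. The means were 9.37 ± 0.23 (SD, n = 4) in LysMCre;Arntfl/fl and 8.92 ± 0.49 (SD, n = 5) in LysMCre macrophages (log2 fold change 0.45, standard error 0.23, 95% interval -0.05 to 0.95, limma adjusted p = 0.496). Without LysMCre replicate 2, its lowest array, the log2 fold change of Vcan was 0.27. The 3 monocyte genes thus did not share a direction.

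Read side by side, the mean of the 6 macrophage genes was 9.52 to 9.98 in LysMCre;Arntfl/fl and 10.00 to 10.38 in LysMCre macrophages. That of the 3 monocyte genes lay between 9.36 and 9.78 in LysMCre;Arntfl/fl and between 9.06 and 9.83 in LysMCre macrophages. The macrophage mean minus the monocyte mean of each array overlapped between genotypes. It was 0.12 to 0.56 in LysMCre;Arntfl/fl and 0.17 to 1.32 in LysMCre macrophages. Of the 6 macrophage genes 5 had a negative log2 fold change, with a median of -0.37, and the median of the 3 monocyte genes was 0.07. Over all probe sets the median was 0.01, with 48.2 percent negative and 51.8 percent positive. LysMCre;Arntfl/fl replicate 2 was the lowest array of its genotype for 5 of the 9 genes, Ly6c2, Ccr2, Cx3cr1, Adgre1 and Cd81, but the highest for Vcan.

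**Figure D3:**
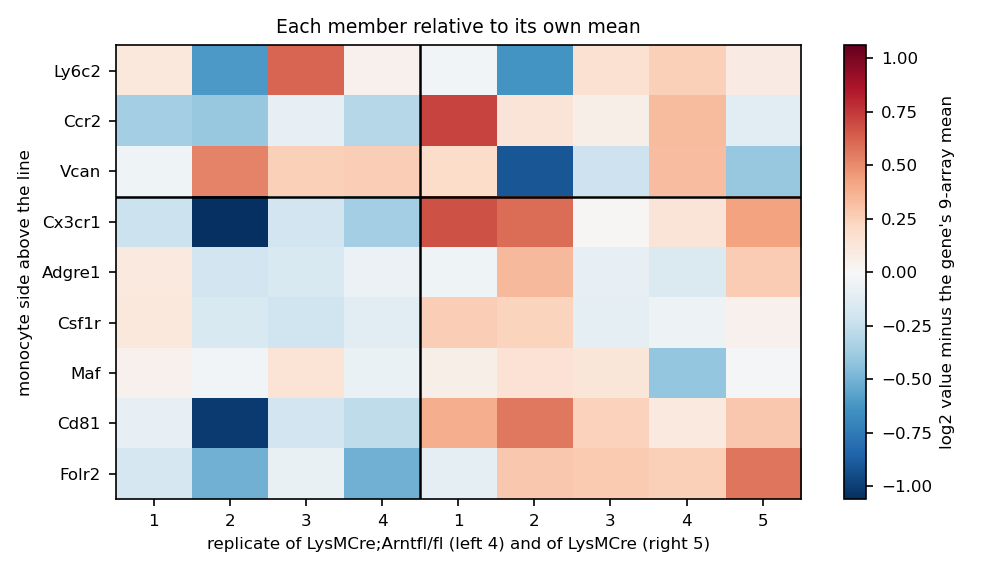
The log2 value of each gene minus its own mean over the 9 arrays, with LysMCre;Arntfl/fl replicates 1 to 4 left and LysMCre replicates 1 to 5 right of the vertical line. Cx3cr1, Cd81, Folr2 and Ccr2 are below their mean in all LysMCre;Arntfl/fl arrays, while Ly6c2 varies within both genotypes.

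Over the 9 arrays, the genes most like Cx3cr1 among 12102 genes with a brighter than median probe set were Kcnj10 (Pearson r = 0.992), Abcg3 (r = 0.986) and Sting1 (r = 0.985). Kcnj10 encodes a potassium channel, Abcg3 a transporter of the ABC family and Sting1 the adaptor that senses cyclic dinucleotides. With the genotype means removed and the 9 arrays pooled, the values were 0.976, 0.960 and 0.959. The likeness thus did not rest only on the difference between genotype means, and it was not computed within either genotype alone. Their log2 fold changes were -0.77 for Kcnj10, -1.04 for Abcg3 and -0.81 for Sting1, with limma adjusted p values of 0.0970, 0.0970 and 0.0730. The genes most like Ly6c2 were Suox (r = 0.939), Pcbp1 (r = 0.920) and Elof1 (r = 0.908), which encode sulfite oxidase, an RNA-binding protein and a transcription elongation factor. Their log2 fold changes were 0.06, 0.01 and 0.03. These correlations share the 9 arrays and are the highest of many, and they are given as descriptions.

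The ligands of the receptors among the 9 genes were measured in the same cells. Ccl12, a CCR2 ligand of mice, averaged 5.97 ± 0.35 (SD, n = 4) in LysMCre;Arntfl/fl and 7.16 ± 0.45 (SD, n = 5) in LysMCre macrophages, without overlap (log2 fold change -1.19, limma adjusted p = 0.0601). The LysMCre;Arntfl/fl mean of Ccl12 was below the median of all probe sets, 6.02. Ccl7 and Ccl2, the other ligands listed for CCR2, had log2 fold changes of -0.79 (limma adjusted p = 0.295) and -0.39 (limma adjusted p = 0.355), both with overlapping arrays. All 3 CCR2 ligands and the receptor were thus on the lower side in LysMCre;Arntfl/fl macrophages. Csf1, the ligand of CSF1R, had -0.11 (limma adjusted p = 0.850), and -0.21 to -0.01 with 1 array left out, the first when it was LysMCre replicate 2, the other when it was LysMCre;Arntfl/fl replicate 1. Of the 6 ligands, limma called 0 and the SAM-type d score called Ccl12 (q = 0.0179). At an unadjusted p below 0.05, 3 were lower, where 5.79 percent of all probe sets were. Ccl12 was the 1 ligand lower without overlap, where 2.22 percent of all probe sets were. The other 2 ligands, Cx3cl1 and Il34, were chosen for mention after their values were seen and had 0.10 and 0.00.

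MHC class II genes, which a monocyte switches on as it matures, lay lower without overlap in all 4 measured genes. The log2 fold change was -0.73 for Ciita, the transactivator of the class II genes (limma adjusted p = 0.190), -0.44 for H2-Aa (0.115), -0.42 for H2-Eb1 (0.194) and -0.37 for H2-Ab1 (0.238). Without LysMCre;Arntfl/fl replicate 2, Ciita had -0.46 and H2-Ab1 -0.24. H2-Aa was between 12.38 and 12.83 in LysMCre;Arntfl/fl and between 12.99 and 13.24 in LysMCre macrophages. Limma called 0 of the 4, and all 4 were lower at an unadjusted p below 0.05. Over all probe sets, 5.79 percent were lower at that p and 2.22 percent were lower without overlap. LysMCre;Arntfl/fl replicate 2, the lowest array for Cx3cr1 and Cd81, was also the lowest for all 4 of these genes. Cd74 was not analysed here, having no probe set with 1 symbol.

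Among regulators of monocyte differentiation, 7 of the 10 measured were on the lower side and 3 on the higher (median log2 fold change -0.26). Runx3, a transcription factor of mononuclear phagocytes and lymphocytes, averaged 8.05 ± 0.27 (SD, n = 4) in LysMCre;Arntfl/fl and 8.72 ± 0.18 (SD, n = 5) in LysMCre macrophages (log2 fold change -0.67, limma adjusted p = 0.0725). Irf8, which directs monocyte and dendritic cell fate, was at 9.38 ± 0.21 (SD, n = 4) in LysMCre;Arntfl/fl and 9.92 ± 0.17 (SD, n = 5) in LysMCre macrophages (log2 fold change -0.55, limma adjusted p = 0.0872). Klf4, needed for inflammatory monocytes, had -0.37 (limma adjusted p = 0.166), and Nr4a1, needed for the Ly6C-low monocytes of the blood, had -0.32 (limma adjusted p = 0.314), or -0.21 without LysMCre;Arntfl/fl replicate 2. Runx3, Irf8 and Klf4 did not overlap between genotypes, and all were lower in LysMCre;Arntfl/fl. For these genes and Nr4a1, LysMCre;Arntfl/fl replicate 2 was the lowest array. Limma called 0 of the 10, the SAM-type d score called Runx3 (q = 0.0368), and 6 were lower at an unadjusted p below 0.05. Of all probe sets, 5.79 percent were lower at that p, and 2.22 percent were lower without overlap.

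Other monocyte genes leaned the opposite way to Ccr2. Of 12 measured, 10 had a positive log2 fold change (median 0.30) and limma called 0. At an unadjusted p below 0.05, 5 were higher, where 5.72 percent of all probe sets were. Chil3, which encodes the chitinase-like protein Ym1, was between 8.15 and 9.49 in LysMCre;Arntfl/fl and between 5.57 and 7.89 in LysMCre macrophages (log2 fold change 2.25, limma adjusted p = 0.0896). Ifitm6, of the interferon-induced transmembrane family, had 1.42 (limma adjusted p = 0.148), F13a1, the A subunit of coagulation factor XIII, had 0.86 (limma adjusted p = 0.230) and S100a6, a calcium-binding protein, had 0.52 (limma adjusted p = 0.492). Without LysMCre;Arntfl/fl replicate 2, F13a1 had 0.55, and without LysMCre replicate 2, S100a6 had 0.30. Of the 12, 3 were higher without overlap, Chil3 and, named after their values were seen, Clec4e (0.30) and Thbs1 (0.27), where 2.52 percent of all probe sets were. The SAM-type d score called Chil3 (q = 0.0179) and Ifitm6 (q = 0.0378). Chil3, Ifitm6 and Clec4e are transcribed in neutrophils too.

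Of 21 other macrophage genes measured, 15 were on the lower side and 6 on the higher (median log2 fold change -0.17), and limma called 0. With an unadjusted p below 0.05, 8 were lower and 1 was higher, where 5.79 percent of all probe sets were lower and 5.72 percent higher. Itgax, which encodes CD11c, had -0.72 (limma adjusted p = 0.234), Cd4, found on long-lived gut macrophages, had -0.59 (limma adjusted p = 0.271) and the complement gene C1qa had -0.56 (limma adjusted p = 0.206). The haemoglobin scavenger receptor gene Cd163 was the 1 higher at that p, with 0.62 (limma adjusted p = 0.297). Without LysMCre;Arntfl/fl replicate 2, Itgax had -0.47 and Cd4 -0.38, and without LysMCre;Arntfl/fl replicate 3, Cd163 had 0.40. For Itgax, Cd4 and C1qa, LysMCre;Arntfl/fl replicate 2 was the lowest array. None of the 21 was without overlap.

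**Figure D4:**
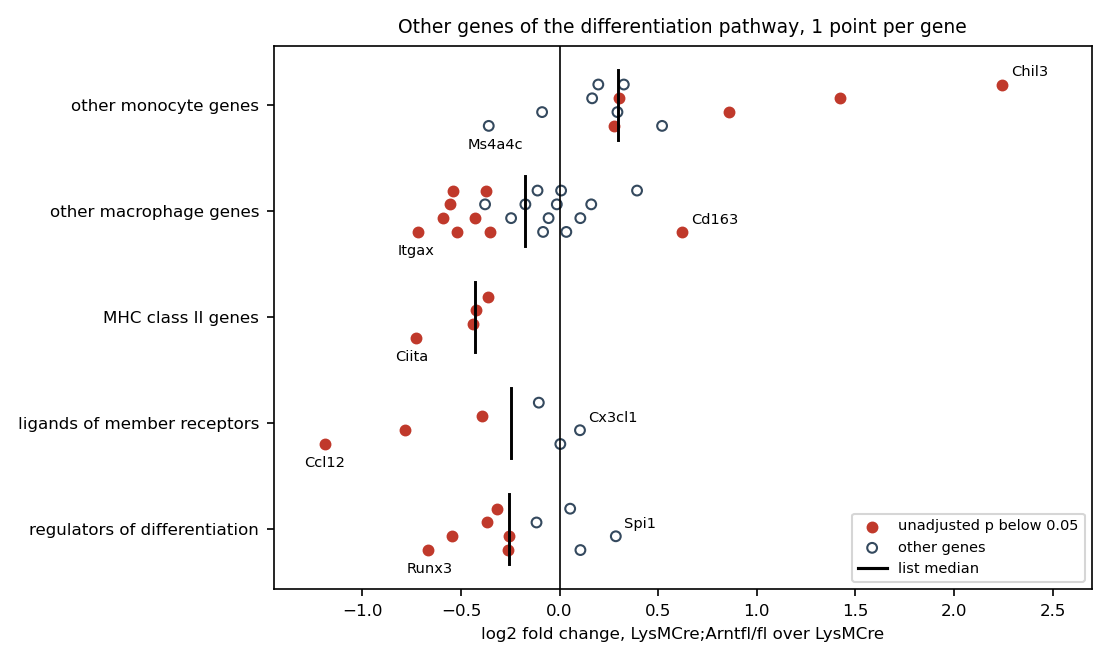
The log2 fold change of each gene of 5 lists of the differentiation pathway, LysMCre;Arntfl/fl over LysMCre, 1 point per gene, filled where the unadjusted p is below 0.05, with the list median as a bar. The medians are 0.30 for other monocyte genes, -0.17 for other macrophage genes, -0.43 for MHC class II genes, -0.25 for ligands and -0.26 for regulators.

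The sorted cells were checked against markers. Arnt, the floxed gene, fell by 0.66 on the log2 scale, with 8.73 ± 0.10 (SD, n = 4) in LysMCre;Arntfl/fl and 9.39 ± 0.10 (SD, n = 5) in LysMCre macrophages (limma adjusted p = 0.0214, no overlap); 0.151 percent of all probe sets were called lower. This call was lost without any of LysMCre;Arntfl/fl replicates 2, 3 and 4 or LysMCre replicates 3 and 5, with an adjusted p of up to 0.0883. The mean of 6 pan-macrophage genes lay between 10.44 and 10.64 in LysMCre;Arntfl/fl and between 10.37 and 10.76 in LysMCre macrophages. Of the sort markers, Ptprc (CD45) had a log2 fold change of -0.01 (limma adjusted p = 0.981) and Itgam (CD11b) one of 0.44 without overlap (limma adjusted p = 0.160).

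Neutrophil genes moved with the genotype. All 11 of the list had a positive log2 fold change (median 1.44), and 1 was called by limma, where 0.143 percent of all probe sets were called higher. At an unadjusted p below 0.05, 10 were higher, where 5.72 percent of all probe sets were. The called gene was Ngp, neutrophilic granule protein (3.45, limma adjusted p = 0.0330), and Retnlg (2.11), the collagenase gene Mmp8 (2.09) and the chemokine receptor gene Cxcr2 (1.80) came next. The call of Ngp was lost in the fits without LysMCre;Arntfl/fl replicates 2, 3 or 4 or LysMCre replicates 1, 2, 3 or 5, with an adjusted p of up to 0.110. The SAM-type d score also called Retnlg (q = 0.0179), Mmp8 (q = 0.0179) and Cxcr2 (q = 0.0303). The mean of the list was 9.72, 9.64, 10.45 and 10.33 in LysMCre;Arntfl/fl replicates 1 to 4 and 8.03, 7.96, 8.13, 9.36 and 9.03 in LysMCre replicates 1 to 5. Array values on the log2 scale have no true zero, so the absence of a marker could not be read, and S100a8, S100a9 and Csf3r of this list are also transcribed in monocytes. Mmp8 is among the genes that the study shows from these arrays.

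The neutrophil mean did not overlap between genotypes, with 9.64 to 10.45 in LysMCre;Arntfl/fl and 7.96 to 9.36 in LysMCre macrophages. Genotype and neutrophil mean therefore cannot be told apart in these arrays. LysMCre replicates 4 and 5, the LysMCre arrays with the highest neutrophil mean, had Cx3cr1 at 9.54 and 9.84 and Cd81 at 11.58 and 11.77. Like every LysMCre array, they lay above all LysMCre;Arntfl/fl arrays, because neither gene overlapped between genotypes. LysMCre replicate 4, with the highest neutrophil mean of its genotype, also had the lowest Cd81 of its genotype. LysMCre;Arntfl/fl replicate 2, with the lowest Cx3cr1 and Cd81, had the lowest neutrophil mean of its genotype. Adjusted for the neutrophil mean, Cx3cr1 had a log2 fold change of -0.83 (standard error 0.38, limma adjusted p = 0.620) and Cd81 of -0.66 (standard error 0.34, limma adjusted p = 0.664). Folr2 had -0.84 (standard error 0.25, limma adjusted p = 0.455) and Ccr2 -0.47 (standard error 0.30, limma adjusted p = 0.716). Among these genes only Folr2 kept an unadjusted limma p below 0.05. On the same footing Vcan had 0.07 (standard error 0.41) and Ly6c2 -0.65 (standard error 0.37). The standard errors were larger with this covariate, which itself differed between genotypes. Its part in the values of the members and the other monocyte genes was not tested further.

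**Figure D5:**
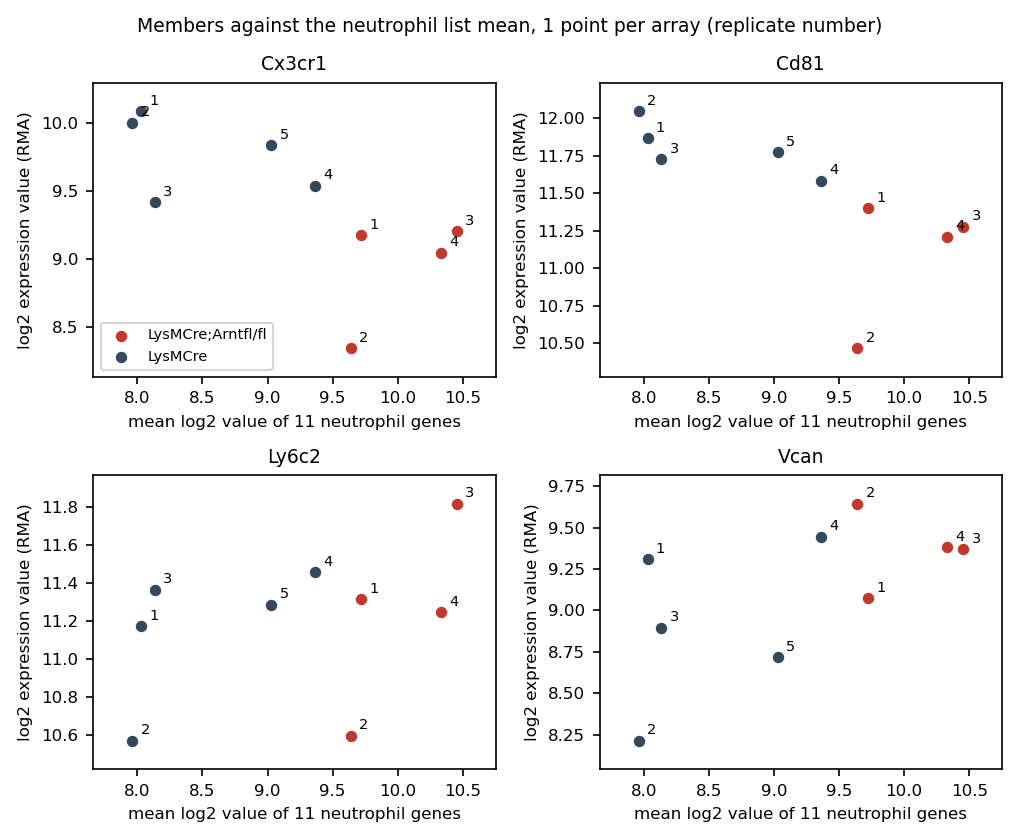
The log2 value (RMA) of Cx3cr1, Cd81, Ly6c2 and Vcan in each array against the mean log2 value of 11 neutrophil genes, with the replicate number beside each point. All LysMCre;Arntfl/fl arrays lie to the right of all LysMCre arrays, and for Cx3cr1 and Cd81 also below them. LysMCre replicates 4 and 5 are at 9.36 and 9.03 on the horizontal axis.

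The ranges of the list means of other cells overlapped between genotypes, though endothelial genes leaned higher in LysMCre;Arntfl/fl macrophages. The mean of 8 epithelial genes lay between 9.02 and 9.77 in LysMCre;Arntfl/fl and between 7.71 and 10.48 in LysMCre macrophages, highest in LysMCre replicates 3 and 4, and the goblet cell gene Muc2 of that list had -1.44 (limma adjusted p = 0.329). Endothelial genes had means of 7.44 to 8.61 in LysMCre;Arntfl/fl and 7.26 to 7.60 in LysMCre macrophages, with 3 of the 4 LysMCre;Arntfl/fl arrays above all LysMCre arrays. Limma called 0 of these 4 genes, and 3 were higher at an unadjusted p below 0.05, Cdh5 (0.79), Kdr (0.74) and Emcn (0.80). Of all probe sets, 5.72 percent were higher at that p. Fibroblast genes (4 of 4 negative) had means of 8.26 to 9.64 in LysMCre;Arntfl/fl and 8.52 to 9.83 in LysMCre macrophages. The means of eosinophil (5.99 to 6.24 in LysMCre;Arntfl/fl, 6.03 to 6.54 in LysMCre), dendritic cell (7.01 to 7.30 in LysMCre;Arntfl/fl, 6.91 to 7.34 in LysMCre), T cell (7.95 to 8.60 in LysMCre;Arntfl/fl, 7.76 to 8.93 in LysMCre) and B and plasma cell genes (8.92 to 9.57 in LysMCre;Arntfl/fl, 9.22 to 9.87 in LysMCre) did so as well. The part of these cells in the members' values was not tested.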

How the data were processed

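Total RNA (1.5 ng per sample) was amplified, labelled with biotin and measured on Affymetrix Mouse Gene 2.0 arrays. Values deposited by the authors are RMA values on the log2 scale, which are background-corrected and quantile-normalized, 1 per probe set and array. Partek is given as version 6.6 in the submitters' processing notes. For any filter on probe sets and for the annotation's genome build, nothing was given in the sources used here. Each array held 34365 values between 2.26 and 14.27, with medians of 5.98 to 6.04, 0 missing values and 0 identical arrays (pairs correlated at 0.976 to 0.990). The number of arrays limits the precision. Symbols came from the platform annotation, in which 23521 probe sets had 1 symbol, 1820 several and 9024 none.

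The genotypes were compared in limma 3.58.1 (lmFit and eBayes, R 4.3.3), with all 9 arrays, no covariate and Benjamini-Hochberg adjustment over all probe sets. The tests were checked on simulated data with independent noise for each probe set. Such data hold no shift shared by many genes of an array, so the check does not cover that. Alternatives were a SAM-type d score (100 seeded permutations), the methods' t-test, a variance trend, array weights, median centring, no fold threshold, a restriction to 1-symbol probe sets, another to probe sets brighter than the median, the mean of all probe sets of a gene, the neutrophil mean as a covariate, the replicate block, and each array left out. The genes named are the 9 members, Arnt, Ly6c1, Ptprc and Itgam, the called or up to 4 largest genes of each pathway list and the neutrophil list, and the 3 genes most like Cx3cr1 and Ly6c2. Cx3cl1, Il34, S100a8, S100a9, Csf3r, Cd74, Clec4e, Thbs1, Muc2, Cdh5, Kdr and Emcn were named after their values were seen and fall outside this rule. The members and lists were chosen with earlier results of these data known. Mice were separate animals, with 1 array each.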

Additional observations from a re-analysis of the deposited data

Results flagged for a closer look

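In 4 of 76 groups examined (38 genes and list means in 2 genotypes), 1 array stood apart from the others of its genotype by Dixon's criterion, whose limit is set so that chance does so in about 5% of groups. Ciita was at 7.24 in LysMCre;Arntfl/fl replicate 2, where the other LysMCre;Arntfl/fl arrays were between 8.24 and 8.34. H2-Aa was at 12.38 in the same array, where the others were between 12.77 and 12.83. Csf1 was at 7.61 in LysMCre replicate 2, where the other LysMCre arrays were between 8.08 and 8.20. Irf8 was at 10.21 in LysMCre replicate 2, where the others were between 9.81 and 9.88. None of the 9 members was among them.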

How the results depend on the processing

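Over 172 values of the 9 members under the alternatives, 7 changed sign, all in Ly6c2, Csf1r or Maf. Of 76 values of Ccr2, Cx3cr1, Cd81 and Folr2, 0 did, and the SAM-type d score changed a call in 1 of them, Cx3cr1 (-0.83, q = 0.0419), with 1 member called. The variance trend, the SAM-type d score, the t-test and the missing fold threshold keep a log2 fold change as it is. So do the restrictions to 1-symbol or brighter probe sets, and a sign could not change in any of these settings. The fits with 1 array left out share most of their arrays. With 1 array left out the log2 fold change was -0.92 to -0.63 for Cx3cr1, -0.81 to -0.50 for Cd81, -0.66 to -0.50 for Folr2, -0.60 to -0.39 for Ccr2, 0.27 to 0.58 for Vcan, -0.12 to 0.29 for Ly6c2, -0.060 to 0.081 for Maf, -0.082 to 0.14 for Ly6c1 and -0.049 to 0.024 for Ptprc. Maf was negative when LysMCre;Arntfl/fl replicate 3 or LysMCre replicate 4 was left out, and with the mean of its probe sets (-0.12).

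With the neutrophil mean as a covariate, Ly6c2 had -0.65, Csf1r 0.060, Ly6c1 -0.49, Ptprc 0.10, Retnlg -0.25, Mmp8 -0.064, Cxcr2 -0.32, Ifitm6 -0.21, S100a6 -0.42 and Arnt -0.58 (adjusted p = 0.436), and the median of the monocyte side was -0.47. The neutrophil genes are part of that mean. Ptprc had 0.0030 with array weights.

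Between arrays of the same replicate number, deviations from the genotype mean correlated at -0.120, -0.0715, -0.000463 and 0.166. Arrays of unlike replicate number were not compared in this way, so whether the numbers pair the arrays was not settled. With the replicate block, Cx3cr1 had -0.82, Cd81 -0.72, Folr2 -0.50, Ccr2 -0.60 and Arnt -0.68 (adjusted p = 0.138), and 3 probe sets were called higher and 2 lower. All probe sets gave 49 higher and 52 lower calls with limma, and 159 and 193 with the SAM-type d score. The unpaired t-test gave 1 and 3 (Arnt -0.66, adjusted p = 0.107). Calls higher and lower were 87 and 80 with array weights, 98 and 106 with the probe sets brighter than the median, and 0 and 0 with the neutrophil covariate. They were 0 to 74 and 1 to 75 with 1 array left out (Arnt -0.70 to -0.62). LysMCre replicate 5 gave the fewest and LysMCre replicate 4 the most. The pathway lists held 0 calls with limma, 4 with the SAM-type d score (Ccl12, Chil3, Ifitm6 and Runx3), 1 with only 1-symbol probe sets (Ccl12), 2 with the brighter ones (Ccl12 and Runx3), and 0 to 1 with 1 array left out (Ccl12 without LysMCre replicate 4). Ngp was not called with the unpaired t-test (adjusted p = 0.165), the replicate block (0.0947) or the neutrophil covariate (1.21, adjusted p = 0.572). The cause of these changes was not tested. In the 1-symbol and brighter settings the fit was repeated on fewer probe sets, and the adjustment ran over fewer. The 4 and 5 arrays, and RMA values with no count or background measure, set the depth of all results.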
